A study of Mus musculus with 10 samples.

Results

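Endothelial identity genes are the transcripts that mark the cells lining blood vessels. The 36 examined here were chosen by name, with earlier results of these data known. Among probe sets that carry a single gene symbol, the brightest one, averaged over the arrays, stands for each gene. All 36 were on the array and all 36 were tested, out of 14321 genes tested in all. Total RNA came from the aorta of male C57BL/6 mice, which were either wild type or Ptgds-/-. Ptgds encodes lipocalin-type prostaglandin D synthase (L-PGDS), an enzyme that makes prostaglandin D2. The series lists 10 samples, 5 per genotype, which the labels call biological replicates. Wild type replicate 2 has no values and is excluded per its label, so the genotypes were compared over 4 wild type arrays (replicates 1, 3, 4 and 5) and 5 knockout arrays (replicates 1 to 5). Values per array are given in that order throughout. The labels state a chow diet and group housing, and give no age, litter, substrain or description of the deleted exons.

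The endothelium is a single layer of cells, so its transcripts are a small part of the RNA of a whole aorta, most of which comes from smooth muscle and from the fat and connective tissue around the vessel. ETS factors such as Erg and Fli1, together with Sox7, Sox17 and Sox18, switch on endothelial genes. Junction proteins such as Cdh5 and Pecam1 hold the layer together, and the VEGF receptors and the Tie receptors carry its growth and survival signals. Endothelial cells differ by vessel: the lining of large arteries senses flow, while capillary cells in fat and in the small vessels of the wall carry genes such as Gpihbp1, which binds lipoprotein lipase. In whole tissue, fewer endothelial cells and less RNA per endothelial cell cannot be told apart.

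The values are log2 expression per probe set from GCRMA. Array medians lay between 5.88 and 5.97, and each array had 70.1% to 71.4% of its probe sets above 4. Mean correlations of an array with the others were 0.990 to 0.992, except wild type replicate 3 at 0.983. The targeted gene matched the labels: Ptgds stood at 9.11, 10.31, 8.79 and 8.68 on the wild type arrays and 3.86, 3.92, 3.76, 3.67 and 4.40 on the knockout arrays. That is a change of −5.30 (log2, SE 0.32, adjusted p 0.00059 in limma), and the groups do not overlap (exact two-sided permutation p 0.0079, the smallest that 126 splits allow). An adjusted p of 0.05 (limma) was passed by 0.0559% of tested genes, and by 0.0279% on the lower side.

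Every one of the 36 genes lay over a log2 value of 4 on all 9 arrays, so none entered the test through 1 group alone. Esm1 and Lyl1 came closest to the floor, with lowest values of 4.90 (knockout replicate 3) and 4.85 (wild type replicate 4).

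None of the 36 genes passed an adjusted p of 0.05 (limma) between knockout and wild type aortas. In all, 27 of the 36 had lower means in the knockout and 9 had higher means, against 43.3% lower among all tested genes. The median difference was −0.18 on the log2 scale, beside 0.03 over all tested genes. An unadjusted p under 0.05 was reached by 11 genes, each lower in the knockout: Nostrin, Cdh5, Esam, Cd93, Emcn, Sox7, Ptprb, Tie1, Rasip1, Sox17 and Mmrn2. Over all tested genes 19.9% reached that p, 7.12% on the lower side and 12.8% on the higher side. Leaving out wild type replicate 5 reduced the 11 genes to 3 (4.80% of all genes lower at that p). Leaving out wild type replicate 3 gave 7 (6.24%), and leaving out knockout replicate 1 also gave 7 (6.18%). Adjusting for the mean of the adipocyte markers gave 7 (4.01%). The count rose to 13 without wild type replicate 4 (7%). Without wild type replicate 1 it was 9, of which 8 were lower in the knockout (8.27%). Standard errors of the 36 differences ran from 0.07 to 0.27.

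**Figure D1:**
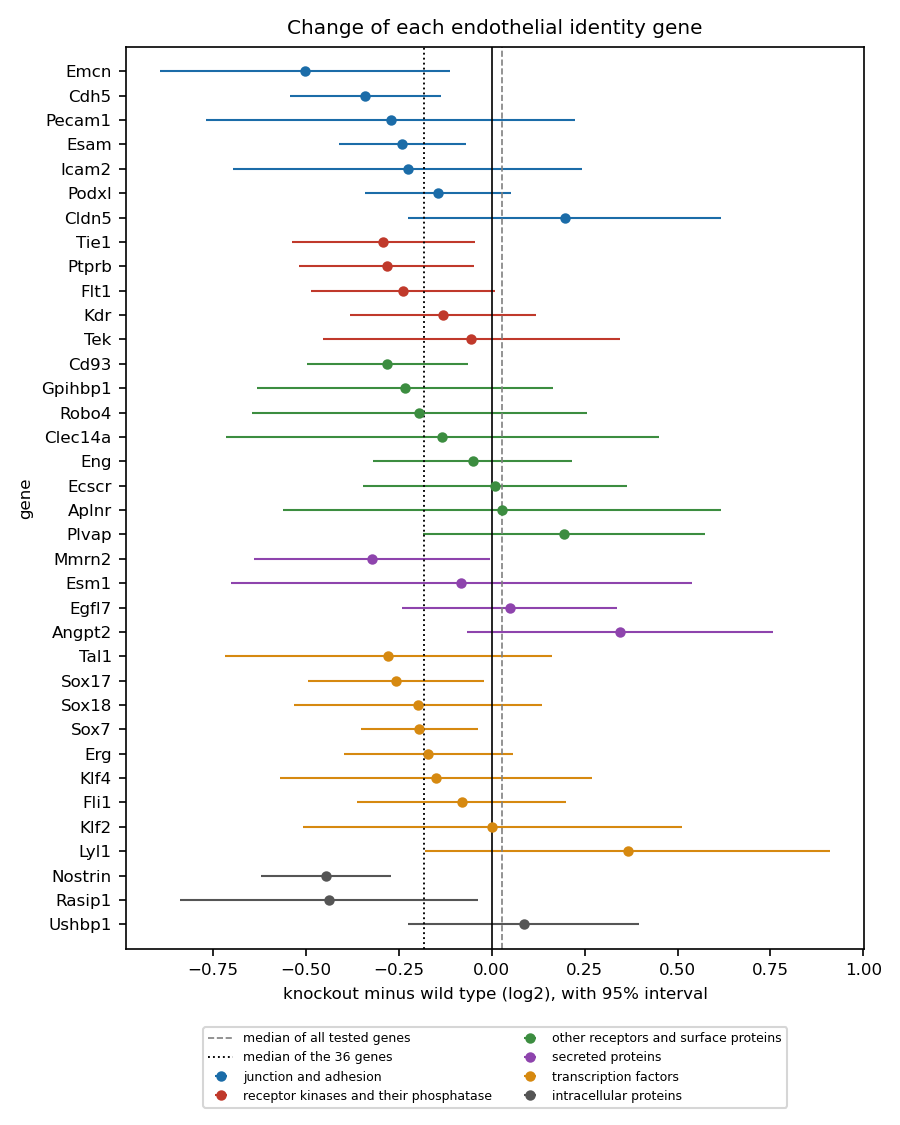
Difference of each of the 36 genes (knockout minus wild type, log2; point and 95% interval of the limma fit, 4 wild type and 5 knockout arrays), grouped by role, with the median of the 36 genes (dotted) and of all tested genes (dashed). 27 points lie below 0, and the intervals of 11 genes lie wholly below it.

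Nostrin, an adaptor protein that binds endothelial nitric oxide synthase and takes it into vesicles, had the smallest p of the 36. It stood at 6.93, 7.11, 7.19 and 7.28 on the wild type arrays and 6.66, 6.60, 6.70, 6.79 and 6.66 on the knockout arrays. The genotypes did not overlap, with the highest knockout array at 6.79 and the lowest wild type array at 6.93. Means were 7.13 ± 0.15 (SD, n = 4) in wild type and 6.68 ± 0.07 (SD, n = 5) in the knockout, a difference of −0.45 (log2, SE 0.08, adjusted p 0.086 in limma), or 1.36-fold lower, with a 95% interval of −0.62 to −0.27. The gene ranked 45th of all tested genes by p and passed an adjusted p of 0.10, as did 0.601% of tested genes. It passed the threshold of 0.05 without wild type replicate 1 (−0.51, adjusted p 0.011) and with array weights (−0.50, adjusted p 0.044), where 7.34% and 0.510% of all genes passed. With the adipocyte markers as a covariate its difference was −0.39 (SE 0.08, adjusted p 0.315).

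The other intracellular proteins were Rasip1 and Ushbp1. Rasip1, which binds the GTPase Rap1 and is needed to open vessel lumens, stood at 6.64, 6.75, 6.25 and 7.02 on the wild type arrays and 5.79, 6.22, 6.51, 6.38 and 6.22 on the knockout arrays. Knockout replicate 1 was the lowest array and wild type replicate 5 the highest, and the groups overlapped. The difference was −0.44 (log2, SE 0.18, adjusted p 0.221 in limma). Ushbp1, a PDZ-domain binding protein, stood at 9.24, 9.61, 9.33 and 9.20 on the wild type arrays and 9.13, 9.36, 9.28, 9.71 and 9.65 on the knockout arrays, with a difference of 0.09 (SE 0.14, adjusted p 0.759). Its groups overlapped across most of their range.

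Promoter sequences are shown for the genes with an unadjusted p under 0.05 that the RefSeq table holds, to set their sequence beside their values. The table gave promoters for 19 of the 36 genes and for 4 of the 11. Each line is the 250 bases before the transcription start in GRCm38.p6, 5′ to 3′ on the gene's strand. Capitals mark matches on either strand to GGAAGT (an ETS motif), AACAAT (a SOX motif) or CACACCC (a KLF motif), and no match overlaps another.
Nostrin (chr2:69135550-69135799, plus strand): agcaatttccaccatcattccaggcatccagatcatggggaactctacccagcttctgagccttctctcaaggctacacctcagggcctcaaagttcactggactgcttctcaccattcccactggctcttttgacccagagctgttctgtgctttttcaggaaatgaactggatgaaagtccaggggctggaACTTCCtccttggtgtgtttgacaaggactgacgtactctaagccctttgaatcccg
Emcn (chr3:137340828-137341077, plus strand): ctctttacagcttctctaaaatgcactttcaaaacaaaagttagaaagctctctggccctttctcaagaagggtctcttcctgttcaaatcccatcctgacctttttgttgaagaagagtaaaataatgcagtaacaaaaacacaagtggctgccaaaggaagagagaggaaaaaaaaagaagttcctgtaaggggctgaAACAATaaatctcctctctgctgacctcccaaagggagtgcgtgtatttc
Tie1 (chr4:118489850-118490099, minus strand): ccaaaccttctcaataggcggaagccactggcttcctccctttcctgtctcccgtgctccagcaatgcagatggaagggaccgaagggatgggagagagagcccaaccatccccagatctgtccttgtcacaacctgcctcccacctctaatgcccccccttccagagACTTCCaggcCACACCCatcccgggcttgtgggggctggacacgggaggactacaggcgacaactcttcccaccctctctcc
Rasip1 (chr7:45627287-45627536, plus strand): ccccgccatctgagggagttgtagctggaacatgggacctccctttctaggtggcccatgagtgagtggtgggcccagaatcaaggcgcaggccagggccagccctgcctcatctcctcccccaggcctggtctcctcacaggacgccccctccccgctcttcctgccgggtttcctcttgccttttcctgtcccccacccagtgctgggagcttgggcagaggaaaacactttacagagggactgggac

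In these 250 bases Nostrin holds 1 ETS match, 57 bases before the start. Tie1 holds 1 ETS match 82 bases before it and 1 KLF match 72 bases before it, and Emcn holds 1 SOX match 50 bases before it. Rasip1 has none of the 3 sets of letters in this window. Among 24 promoters of the 19 genes, 7 hold the ETS letters, 4 the SOX letters and 3 the KLF letters. Of 32851 promoters of the same length, 19.7% hold the ETS letters, 9.42% the SOX letters and 6.93% the KLF letters. Such matches describe the sequence and are not evidence of binding.

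Genes of junctions and adhesion had lower knockout means in 6 of 7 cases, with a median difference of −0.24. Cdh5, the VE-cadherin of adherens junctions, stood at 8.93, 9.16, 9.14 and 9.28 on the wild type arrays and 8.70, 8.64, 8.77, 8.96 and 8.85 on the knockout arrays. 4 of the 5 knockout arrays lay below the lowest wild type array, and knockout replicate 4 lay just above it. Means were 9.13 ± 0.15 (SD, n = 4) in wild type and 8.79 ± 0.12 (SD, n = 5) in the knockout, a difference of −0.34 (log2, SE 0.09, adjusted p 0.135 in limma), or 1.27-fold lower. A second probe set of Cdh5 gave a difference of −0.38 (SE 0.13).

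Esam, an adhesion molecule of tight junctions, stood at 8.36, 8.53, 8.56 and 8.66 on the wild type arrays and 8.12, 8.31, 8.33, 8.36 and 8.30 on the knockout arrays. The groups did not overlap, but the highest knockout array and the lowest wild type array both round to 8.36. The difference was −0.24 (log2, SE 0.08, adjusted p 0.153 in limma). On the brightest probe set of each gene, Nostrin and Esam were the only 2 of the 36 genes whose groups did not overlap, both on the lower side. Among all tested genes, taken the same way, 6.76% had no overlap, 2.16% on the lower side. A further probe set each of Cd93 and Mmrn2 also had no overlap. Without wild type replicate 1, which was the lowest wild type array for Nostrin, Cdh5 and Esam alike, Cdh5 (−0.41, adjusted p 0.030) and Esam (−0.30, adjusted p 0.044) also passed. That fit called 7.34% of all genes, 2.10% on the lower side, and 3 of the 36.

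Emcn, the sialomucin endomucin of capillaries and veins, stood at 7.97, 7.97, 7.82 and 8.34 on the wild type arrays and 7.18, 7.35, 7.45, 8.03 and 7.60 on the knockout arrays. Knockout replicate 4 lay inside the wild type range and the other 4 knockout arrays below it. The difference of −0.50 (log2, SE 0.17, adjusted p 0.175 in limma) was the largest on the lower side among the 36. Pecam1, the adhesion molecule CD31, spread widely within each genotype, at 9.37, 8.67, 8.46 and 9.35 on the wild type arrays and 8.57, 8.85, 8.95, 8.28 and 8.80 on the knockout arrays. Both groups had a low array, replicate 4 of each genotype, and the difference was −0.27 (SE 0.22, adjusted p 0.514) with a 95% interval of −0.77 to 0.22. Icam2, an adhesion ligand for leukocytes, differed by −0.23 (SE 0.21, adjusted p 0.564) and Podxl, a sialomucin of the luminal surface, by −0.14 (SE 0.09, adjusted p 0.382). Cldn5, a claudin of tight junctions, was the exception with 0.20 (SE 0.19, adjusted p 0.580). Its value on wild type replicate 4 was 7.27 while the other 8 arrays lay between 8.004 and 8.37, and without that array the difference was −0.02.

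**Figure D2:**
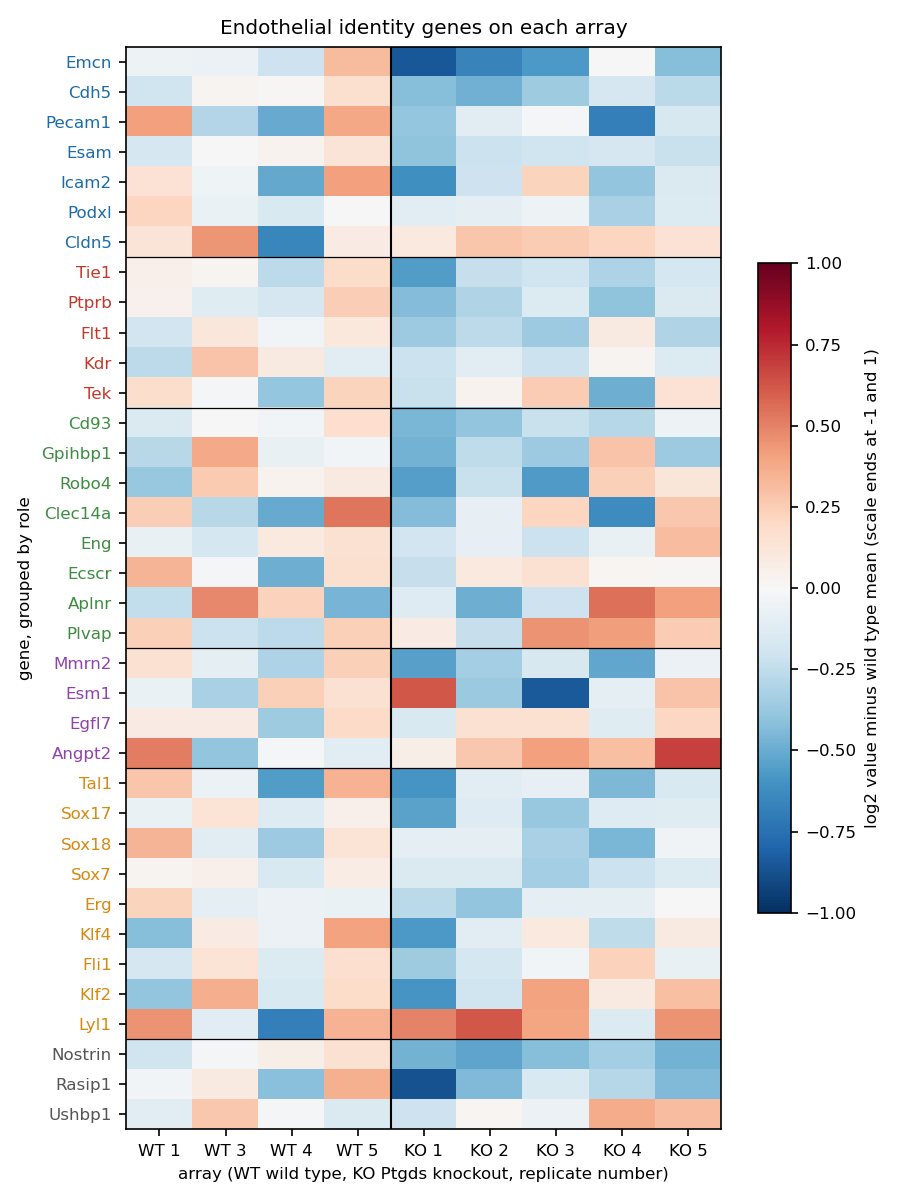
Log2 value of each of the 36 genes on each of the 9 arrays, minus that gene's wild type mean (blue lower, red higher; colours end at −1 and 1), grouped by role. Columns are arrays: wild type replicates 1, 3, 4 and 5, then knockout replicates 1 to 5. Nostrin and Esam are the rows in which every knockout array lies below every wild type array.

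The receptor kinases and their phosphatase had lower knockout means in 5 of 5 cases, with a median difference of −0.24. Ptprb, the phosphatase VE-PTP that acts on Tek and Cdh5, stood at 12.34, 12.17, 12.12 and 12.54 on the wild type arrays and 11.86, 11.99, 12.15, 11.89 and 12.15 on the knockout arrays. Knockout replicates 1, 2 and 4 lay below all wild type arrays, and the difference was −0.28 (log2, SE 0.10, adjusted p 0.194 in limma). 2 further probe sets of Ptprb gave −0.43 (SE 0.14) and, near the floor, −0.19 (SE 0.33).

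Tie1, the orphan receptor that pairs with Tek, stood at 8.12, 8.09, 7.80 and 8.25 on the wild type arrays and 7.51, 7.84, 7.87, 7.76 and 7.89 on the knockout arrays. Wild type replicate 4 overlapped the upper knockout arrays, and the difference was −0.29 (log2, SE 0.11, adjusted p 0.196 in limma). Flt1, VEGF receptor 1, stood at 9.73, 10.04, 9.90 and 10.02 on the wild type arrays and 9.56, 9.66, 9.56, 10.02 and 9.62 on the knockout arrays. Knockout replicate 4 alone reached the wild type range, and the difference was −0.24 (log2, SE 0.11, adjusted p 0.262 in limma). All 4 tested probe sets of Flt1 were lower in the knockout, with differences of −0.05 to −0.24.

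Kdr, VEGF receptor 2, which carries most of the VEGF signal, differed by −0.13 (SE 0.11, adjusted p 0.533), with a 95% interval of −0.38 to 0.12. Tek, the angiopoietin receptor Tie2, was at 11.40, 11.21, 10.83 and 11.44 on the wild type arrays and 10.995, 11.26, 11.47, 10.73 and 11.37 on the knockout arrays. The 2 lowest arrays were again replicate 4 of each genotype, and the difference was −0.05 (SE 0.18, adjusted p 0.891). Its interval of −0.45 to 0.34 allows a shift in either direction.

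**Figure D3:**
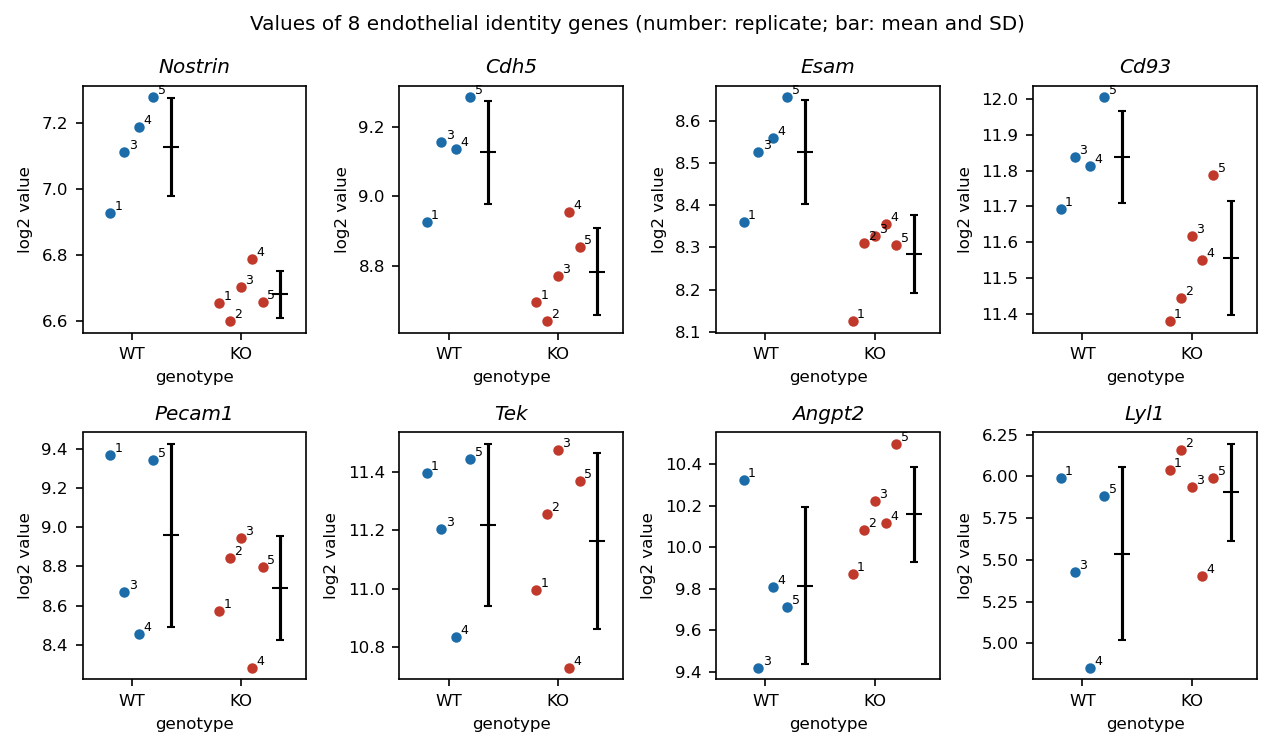
Log2 values of 8 of the genes in wild type (WT, n = 4, blue) and Ptgds knockout (KO, n = 5, red) aortas; numbers are replicates, and bars are the mean and SD. Nostrin and Esam separate by genotype, Cdh5 and Cd93 overlap slightly, and Pecam1, Tek, Angpt2 and Lyl1 spread as widely within a genotype as between genotypes.

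Other receptors and surface proteins were mixed, with 5 of 8 means lower in the knockout and a median difference of −0.09. Cd93, a C-type lectin receptor that holds endothelial cells to each other and to their matrix, stood at 11.69, 11.84, 11.81 and 12.01 on the wild type arrays and 11.38, 11.44, 11.62, 11.55 and 11.79 on the knockout arrays. Knockout replicate 5 was the one knockout array within the wild type range, and the difference was −0.28 (log2, SE 0.10, adjusted p 0.173 in limma). A second probe set of Cd93 gave −0.42 (SE 0.11) without overlap, with the lowest wild type array at 8.88 and the highest knockout array at 8.81. Another, at a mean of 6.31, gave 0.04 (SE 0.10).

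Gpihbp1, which holds lipoprotein lipase on the capillary wall, stood at 9.91, 10.57, 10.11 and 10.16 on the wild type arrays and 9.71, 9.94, 9.82, 10.47 and 9.82 on the knockout arrays. Wild type replicate 3 and knockout replicate 4 were the highest arrays of their groups, and the difference was −0.23 (SE 0.18, adjusted p 0.483). Plvap, a protein of fenestrae and caveolae diaphragms, stood at 10.43, 9.97, 9.93 and 10.42 on the wild type arrays and 10.27, 9.96, 10.64, 10.60 and 10.44 on the knockout arrays and differed by 0.20 (SE 0.17, adjusted p 0.539) toward higher values. Robo4, a receptor that stabilises vessels, differed by −0.20 (SE 0.20, adjusted p 0.608) and Clec14a, a lectin that binds Mmrn2, by −0.13 (SE 0.26, adjusted p 0.802). Eng, a co-receptor of BMP ligands, differed by −0.05 (SE 0.12, adjusted p 0.839). Ecscr, a cell-surface regulator of chemotaxis, differed by 0.01 (SE 0.16, adjusted p 0.980) and Aplnr, the apelin receptor, by 0.03 (SE 0.26, adjusted p 0.965). The sign of Ecscr, Aplnr and Clec14a turned when single arrays were left out.

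Among secreted proteins, 2 of 4 had lower knockout means. Mmrn2, a matrix protein that binds Cd93 and Clec14a, stood at 11.83, 11.59, 11.37 and 11.91 on the wild type arrays and 11.13, 11.34, 11.51, 11.16 and 11.62 on the knockout arrays. The difference was −0.32 (log2, SE 0.14, adjusted p 0.245 in limma), and knockout replicates 3 and 5 overlapped the wild type group. All 4 probe sets of Mmrn2 were lower, and the one with the largest difference stood at 11.06, 10.78, 10.64 and 11.15 on the wild type arrays and 10.03, 10.11, 10.49, 10.06 and 10.41 on the knockout arrays, without overlap. That difference was −0.69 (SE 0.14), with an adjusted p of 0.09999 (limma) over all named probe sets.

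Angpt2, the ligand that antagonises Tek in resting vessels, had one of the largest differences toward higher values, at 10.32, 9.42, 9.81 and 9.71 on the wild type arrays and 9.87, 10.08, 10.22, 10.12 and 10.50 on the knockout arrays. Wild type replicate 1, at 10.32, was higher than 4 of the knockout arrays, and the difference was 0.34 (log2, SE 0.18, adjusted p 0.323 in limma). Without that array the difference was 0.51 (SE 0.15, adjusted p 0.074 in limma). Egfl7, a matrix protein of sprouting vessels, stood at 9.08, 9.08, 8.64 and 9.19 on the wild type arrays and 8.84, 9.15, 9.14, 8.87 and 9.20 on the knockout arrays. Its groups overlapped, the difference was 0.05 (SE 0.13, adjusted p 0.865), and its 4 probe sets ran from 0.02 to 0.05. Esm1, a proteoglycan of tip cells, differed by −0.08 (SE 0.27, adjusted p 0.895), with knockout arrays from 4.90 to 6.36.

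Transcription factors had lower knockout means in 7 of 9 cases, with a median difference of −0.17. Sox7 stood at 8.42, 8.45, 8.24 and 8.47 on the wild type arrays and 8.25, 8.25, 8.05, 8.18 and 8.26 on the knockout arrays, with a difference of −0.19 (log2, SE 0.07, adjusted p 0.184 in limma). Sox17, the SOX factor of arterial endothelium, stood at 10.37, 10.58, 10.31 and 10.49 on the wild type arrays and 9.90, 10.31, 10.06, 10.31 and 10.32 on the knockout arrays, with a difference of −0.26 (log2, SE 0.10, adjusted p 0.221 in limma). For Sox7 only knockout replicates 3 and 4 lay below every wild type array, and for Sox17 replicates 1, 2 and 3 did. A second probe set of Sox17 gave −0.36 (SE 0.13). Sox18, another of this family, differed by −0.20 (SE 0.15, adjusted p 0.477).

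The ETS factor Erg, which keeps endothelial cells in their differentiated state, stood at 9.07, 8.75, 8.79 and 8.78 on the wild type arrays and 8.57, 8.46, 8.75, 8.75 and 8.86 on the knockout arrays. Wild type replicate 1 stood above the other arrays and the difference was −0.17 (SE 0.10, adjusted p 0.371). Fli1, a related ETS factor also made by blood cells, differed by −0.08 (SE 0.12, adjusted p 0.745). The factors shared with blood cells differed in sign: Tal1 differed by −0.28 (SE 0.19, adjusted p 0.451), and Lyl1 by 0.37 (SE 0.24, adjusted p 0.424). Both varied widely within wild type, with replicate 4 the lowest array. Klf2 and Klf4, which blood flow induces in endothelium, differed by 0.002 (SE 0.23, adjusted p 0.997) and −0.15 (SE 0.19, adjusted p 0.677), with 95% intervals of −0.51 to 0.51 and −0.57 to 0.27.

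Klf2 and Klf4 are also induced early in stressed tissue, and wild type replicate 1 and knockout replicate 1 were the lowest arrays of their groups for both. Klf2 was at 8.24, 8.996, 8.48 and 8.82 on the wild type arrays and 8.04, 8.43, 9.04, 8.72 and 8.93 on the knockout arrays. Of 14 immediate early genes, 14 were lowest among wild type arrays on replicate 1, against 22.8% of all tested genes. Among knockout arrays, 9 were lowest on replicate 1, against 19.7%. The mean log2 value of that list ran from 9.34 to 10.60 in wild type and from 9.47 to 10.34 in the knockout, with 11 of 14 genes lower in the knockout and a median of −0.13. Its part in the values of Klf2 and Klf4 was not tested.

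Over the whole set, the SD within a genotype was about as large as the difference between genotypes. The lowest and highest arrays of 1 genotype lay further apart than the 2 genotype means. The mean over the 36 genes was 9.13, 9.14, 8.93 and 9.27 on the wild type arrays and 8.81, 8.95, 9.02, 8.9998 and 9.12 on the knockout arrays. The difference of the means, −0.14, is near the SD within wild type (0.14) and within the knockout (0.11). Wild type replicate 4 lay below 4 of the knockout arrays. It was the lowest wild type array for 19 of the 36 genes, and wild type replicate 5 was the highest for 18, while these arrays were lowest and highest for 21.3% and 19.4% of all tested genes. Knockout replicate 1 was the lowest knockout array for 20 of the 36 (55.6%), against 19.7% of all tested genes.

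The medians of the large vessel and capillary genes among the 36 both varied when single arrays were left out. Capillary and tip cell genes among the 36 (Gpihbp1, Aplnr, Plvap, Esm1, Angpt2, Kdr and Emcn) had a median difference of −0.08, with 4 of 7 lower and 1 of 7 lower at an unadjusted p under 0.05. The arterial and flow-induced genes (Sox17, Klf2 and Klf4) had a median of −0.15, with 2 of 3 lower. The other 26 genes had a median of −0.20, with 21 lower. Dropping knockout replicate 3 turned the capillary median to 0.09. It was −0.0017 when wild type replicate 4, −0.0084 when knockout replicate 2 and −0.04 when wild type replicate 3 was dropped, and −0.13 when either replicate 5 was. The arterial median was −0.28 on dropping wild type replicate 1, −0.02 on dropping wild type replicate 5 and −0.04 on dropping knockout replicate 1. No difference between these groups of genes was tested.

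2 lists of other endothelial genes, outside the 36, hold more large vessel and capillary genes, and the order of their medians is the opposite of that among the 36. Of 17 tested genes of arterial and large vessel endothelium, 10 were lower and 7 higher in the knockout (median −0.09, with 2 lower and 2 higher at an unadjusted p under 0.05 and 0 past the adjusted threshold in limma). Hey2, a Notch target of arterial cells and smooth muscle, stood at 10.74, 10.57, 10.76 and 10.81 on the wild type arrays and 11.06, 11.15, 11.15, 10.96 and 11.12 on the knockout arrays, without overlap on the higher side, where 4.59% of all genes lay. Its difference was 0.37 (log2, SE 0.07, adjusted p 0.091 in limma). It passed without wild type replicate 1 (0.38, adjusted p 0.031 in limma), where 7.34% of all genes passed. Notch4, an endothelial Notch receptor, differed by −0.22 (SE 0.08, adjusted p 0.177). Of 13 genes of capillary endothelium, 11 were lower and 2 higher (median −0.17, with 2 lower and 1 higher at an unadjusted p under 0.05 and 0 past the adjusted threshold in limma). Rgcc, a cell cycle regulator of capillary cells, differed by −0.48 (SE 0.16, adjusted p 0.160) and Meox2, a homeobox factor of capillaries and mesenchyme, by 0.32 (SE 0.13, adjusted p 0.221). Among knockout arrays, 5 of the 13 capillary genes (Rgcc, Rbp7, Cd36, Fabp4 and Aqp1) were lowest on replicate 5, against 22.4% of all tested genes. Another 5 (Cd300lg, Car4, Tcf15, Adgrf5 and Timp4) were lowest on replicate 3, against 18.2%. The mean of the adipocyte markers was lowest on knockout replicate 5 (9.67) and highest of the knockout arrays on replicate 3 (10.75). The part of fat cells in the capillary list was not tested.

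On single arrays the capillary list stood apart from the large vessel list. 10 of the 13 capillary genes were highest among wild type arrays on replicate 3, and 12 of 13 were highest among knockout arrays on replicate 4. On wild type replicate 1, 11 of the 13 were at their lowest. For all tested genes these shares were 23.4%, 17.7% and 22.8%. The large vessel list showed another order. Among knockout arrays 10 of its 17 genes were lowest on replicate 4, against 21.1% of all tested genes. Among wild type arrays 8 of 17 were lowest on replicate 4, against 21.3%. The mean of the fibroblast markers was also lowest on replicate 4 of each genotype (11.86 in wild type, 11.92 in the knockout). The part of fibroblasts in this order was not tested. On knockout replicate 4 the capillary list lay 0.21 above and the large vessel list 0.24 below its mean over the arrays (mean log2 difference per gene). Among the 36 genes, Gpihbp1, Kdr, Robo4, Aplnr, Flt1 and Ushbp1 were highest on wild type replicate 3 and knockout replicate 4, and Pecam1, Tek, Clec14a, Sox18, Podxl and Lyl1 were lowest on replicate 4 of each genotype. Of the 7 capillary and tip cell genes among the 36, 3 were highest on wild type replicate 3 and 4 on knockout replicate 4. Plvap, Esm1 and Angpt2 were highest on neither.

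**Figure D4:**
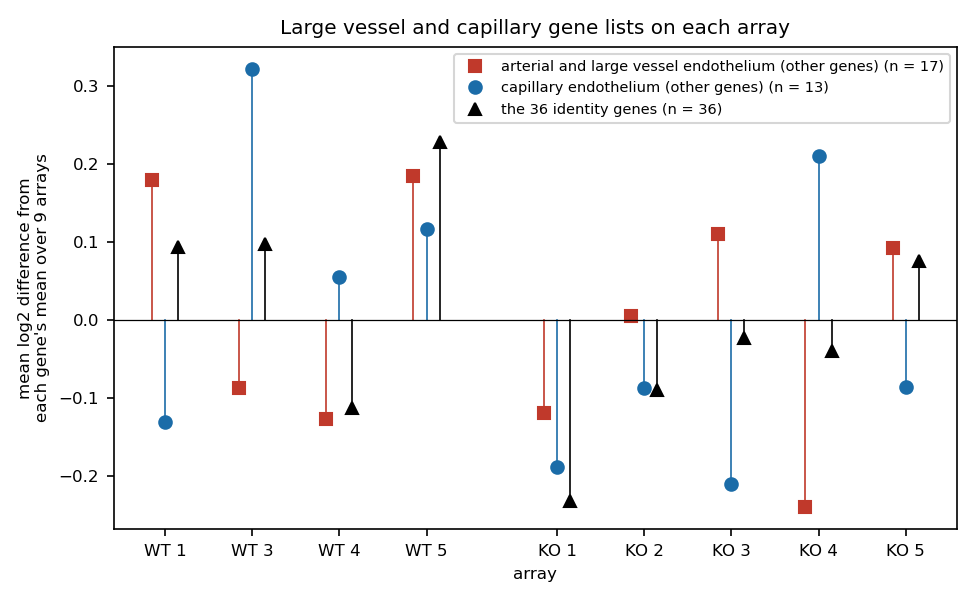
Mean log2 difference from each gene's mean over the 9 arrays, on each array, for 17 other genes of arterial and large vessel endothelium (red squares), 13 other genes of capillary endothelium (blue circles) and the 36 identity genes (black triangles). On wild type replicates 3 and 4 and knockout replicate 4 the capillary list lies above and the large vessel list below 0. On wild type replicate 1 and knockout replicates 2, 3 and 5 the order is the opposite, and on the other two arrays both lists lie on the same side of 0.

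Most venous and lymphatic genes and ligands had lower knockout means, and none passed the test. Of 5 venous genes 4 were lower (median −0.23). Nr2f2, the factor of venous identity, was the exception at 0.22 (SE 0.09, adjusted p 0.233), and Nrp2, a co-receptor of VEGF-C, was at −0.23 (SE 0.14, adjusted p 0.383). Of 6 lymphatic genes 6 were lower (median −0.22). Lyve1, a hyaluronan receptor of lymphatic vessels and macrophages, was at −0.56 (SE 0.23, adjusted p 0.217) and Flt4, VEGF receptor 3, at −0.24 (SE 0.14, adjusted p 0.366).

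Among 17 ligands and partners of the receptors, 13 were lower and 4 higher (median −0.09, with 3 lower and 1 higher at an unadjusted p under 0.05). S1pr1, the receptor for sphingosine 1-phosphate that steadies endothelial junctions, stood at 6.499, 7.08, 6.84 and 7.13 on the wild type arrays and 6.10, 6.32, 6.51, 6.51 and 6.41 on the knockout arrays, a difference of −0.51 (log2, SE 0.14, adjusted p 0.136 in limma). Pgf, the VEGF family ligand that binds Flt1, stood at 6.86, 7.46, 7.68 and 7.48 on the wild type arrays and 6.73, 6.31, 6.49, 7.23 and 6.62 on the knockout arrays, a difference of −0.69 (log2, SE 0.21, adjusted p 0.150 in limma). Both were lower on most knockout arrays, with overlap. Without wild type replicate 1 both passed (adjusted p 0.021 and 0.036 in limma), where 7.34% of all genes passed, 2.10% on the lower side. Genes of endothelial activation were lower in 4 of 4 cases, among them the chemokines Ccl2 at −0.20 (SE 0.13, adjusted p 0.424) and Cxcl1 at −0.31 (SE 0.32, adjusted p 0.621). None of the genes in these 4 lists passed an adjusted p of 0.05 in limma with all arrays.

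Markers of other cells differed between arrays beside these genes. Adipocyte markers were lower in 7 of 7 tested genes (10 listed), with a list mean of 10.41 to 10.95 in wild type and 9.67 to 10.75 in the knockout. With their mean as a covariate the median difference of the 36 genes was −0.19, beside −0.18 without it, and 7 genes had an unadjusted p under 0.05. Brown adipocyte markers were lower in 7 of 7 genes, with list means of 10.85 to 11.68 and 10.21 to 10.995, and macrophage and leukocyte markers in 7 of 7 tested genes (8 listed), with list means of 8.62 to 9.72 and 8.86 to 9.05. Wild type replicate 5 was the highest and wild type replicate 4 the lowest array of the leukocyte list, as they were for the mean of the 36 genes within wild type. Within wild type they were also the highest and lowest arrays of the fibroblast list (12.46 and 11.86). The same held for the large vessel list (9.41 and 9.10) and the endothelial activation list (8.39 and 7.94). Sympathetic neuron markers had list means of 4.57 to 11.05 in wild type, highest on replicate 3, and 4.59 to 9.21 in the knockout, highest on replicate 1. The part of the leukocyte, fibroblast, brown adipocyte and neuron markers in these values was not tested.

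6 of the 36 genes lie on chromosome 2, as Ptgds does. In the gene order of GRCm38.p6, 31 tested genes lie between Ptgds and Egfl7, 133 between it and Eng, 244 between it and Nostrin, 334 between it and Aplnr, 686 between it and Cd93 and 1003 between it and Sox18. Egfl7, the nearest, differed by 0.05 (SE 0.13).

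Most genes with several probe sets gave 1 direction. Of 14 genes with more than 1 tested probe set, 10 had the same sign on all of them. The others were Aplnr, Cd93, Clec14a and Fli1. Over all 58 tested probe sets of the 36 genes, 42 were lower in the knockout. The remaining 22 genes, Nostrin, Esam and Emcn among them, rest on 1 tested probe set.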

How the data were processed

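RNA of mouse aorta was measured on 1-colour Affymetrix arrays with 45101 probe sets. The deposited values were made with GCRMA, per the submitters' processing notes (version not given in the sources used here), a method that adjusts background by probe sequence, quantile-normalizes and summarises each probe set. The deposited values were read as log2, an inference from their range. They were not scaled again.

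Probe sets with 1 gene symbol in the platform annotation (34945, with 932 carrying several and 9160 none, beside 64 controls) were tested if over a log2 value of 4 on at least 4 arrays. A gene was represented by its brightest probe set. The genotype contrast, knockout minus wild type, was fitted in limma 3.58.1 (R 4.3.3; 2 groups, no covariate, empirical Bayes variances), with Benjamini-Hochberg adjustment over 14321 genes and a threshold of 0.05. The fit was tested on simulated data with planted changes of 1 and 2 log2 units, larger than any difference among the 36 genes. That test does not show whether differences as small as those of the 36 would be found. The number of arrays limits the precision. No list was given a test of its own.

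The 36 genes and the lists of other genes were chosen with earlier results of these data known. Values on every array are given for the 3 genes with the smallest p of each of 6 roles and for Pecam1 and Cdh5, and for others chosen after their values were seen (Tek, Klf2, Hey2, S1pr1, Pgf). 2 genes are named from each of 6 lists of other endothelial genes and ligands. Alternatives were normalization, the filter, the probe set rule, limma options, array weights, a looser threshold, an adipocyte covariate, a replicate block and leaving out each array. Promoters are RefSeq's on GRCm38.p6.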

Additional observations from a re-analysis of the deposited data

Results flagged for a closer look

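4 of 74 groups (36 genes and Ptgds, 2 genotypes) held an array whose gap to its nearest neighbour was large against the range of its group, where chance gives about 1 in 20. Flt1 stood at 10.02 on knockout replicate 4, with the next array at 9.66 and the lowest at 9.56. Esam stood at 8.12 on knockout replicate 1, with the other 4 knockout arrays between 8.30 and 8.36. Eng stood at 9.19 on knockout replicate 5, with the next at 8.80. Erg stood at 9.07 on wild type replicate 1, with the other wild type arrays between 8.75 and 8.79.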

How the results depend on the processing

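The count of the 36 genes past the threshold, 0, became 1 (Nostrin) with array weights or at an adjusted p of 0.10, and 0 to 3 when single arrays were left out (Nostrin, Cdh5 and Esam without wild type replicate 1). It stayed 0 under the other alternatives. The count over all genes, 8, was 2 with the adipocyte covariate, 0 with the replicate block, 19 with a floor of 6 (where 34 of the 36 genes were tested), 33 with trend and robust options, 73 with array weights, 86 at an adjusted p of 0.10, and 2 to 1051 when single arrays were left out. The lowest number, 2, came without wild type replicate 5 or knockout replicate 2, and 1051 came without wild type replicate 1. At an unadjusted p under 0.05 the block called 1963 genes.

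The median change of the 36 genes stayed below 0 in every alternative run, from −0.21 to −0.15 without single arrays. The capillary median ran from −0.13 to 0.09 and the arterial median from −0.28 to −0.02. Ptgds kept its call except under the replicate block (−5.30, adjusted p 0.126). Same-numbered deviations correlated at −0.36 to 0.21 over genes, and differently numbered ones at −0.59 to 0.67. These values cannot decide whether the replicate numbers pair the arrays, since the differently numbered pairs vary more widely. The block, on 8 arrays, changed no call among the 36.

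The sign turned under at least 1 alternative for 9 of the 36 genes. Aplnr (0.03) was −0.064 with the adipocyte covariate, −0.0036 with array weights, −0.011 over the mean of its probe sets and −0.13 to 0.19 without single arrays. Klf2 (0.0017) was −0.052 with array weights, −0.0035 after quantile normalization and −0.13 to 0.15 without single arrays. Fli1 (−0.08) was 0.0072 with the covariate, 0.038 over the mean of its probe sets and 0.16 for its most variable probe set. Ecscr (0.0095) was −0.013 with the block and −0.15 to 0.12 without single arrays. Without single arrays Cldn5 (0.20) ran from −0.022 to 0.34, Clec14a (−0.13) from −0.30 to 0.046, Egfl7 from −0.071 to 0.11, Esm1 from −0.26 to 0.11 and Tek from −0.18 to 0.054. The cause was not tested.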

Other observations

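Lists for the other cells of the wall were measured the same way. Smooth muscle markers were lower in 1 of 8 genes (median 0.08), with list means of 12.45 to 12.67 in wild type and 12.65 to 12.70 in the knockout. Pericyte markers were lower in 3 of 6 genes (median −0.05) and fibroblast markers in 5 of 8 (median −0.02). Red cell and platelet markers were lower in 2 of 5 tested genes (8 listed). None of these genes passed an adjusted p of 0.05 in limma.

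Lists for other tissues varied between arrays. Skeletal muscle markers (4 tested of 6) had a list mean of 10.27 on knockout replicate 3 and of 4.41 to 5.12 on the other 8 arrays. Cardiac muscle markers ran from 5.35 to 8.42 in wild type and from 5.60 to 7.70 in the knockout. Schwann cell markers (4 tested of 6) were highest on wild type replicate 3, at 10.40, with the other arrays between 8.33 and 9.75.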
